A study of Mus musculus with 12 samples.

Results

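Follicle epithelium was set against dermal mesenchyme in RNA sequencing libraries made from sorted dorsal skin cells of outbred CD1 mice, 5 days after birth. The epithelium was represented by 4 libraries, 2 of outer root sheath (the outer layer of the follicle) and 2 of matrix (the dividing cells of the hair bulb). The mesenchyme was represented by 6 libraries, 2 each of dermal sheath (the layer around the follicle), dermal papilla (the cell cluster inside the bulb) and dermal fibroblasts. These are 10 of the 12 libraries of the series, and the 2 melanocyte libraries were left out of the comparison. The labels give no treatment and no engineered allele for any group. The sources used here do not give sort gates or the number of mice, nor whether both libraries of a population stem from separate animals. The p-values therefore cover only the spread among these libraries, part or all of which may be technical. The dermal libraries and all others fall in separate blocks of sample numbers, and the labels do not say whether handling differed between them. Such a difference could not be told apart from that between epithelium and mesenchyme. A gene was placed on the epithelial or the mesenchymal side when each library of that side exceeded each library of the other by at least 2-fold in FPKM + 1. FPKM counts sequenced fragments per length of transcript and per size of library. Of 19150 genes in the table, 607 were on the epithelial side and 751 on the mesenchymal side.

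Epithelial cells of the follicle sit on a basement membrane and hold to each other through desmosomes, adherens junctions and tight junctions, with keratin filaments inside the cell. Mesenchymal cells lie apart in a collagen matrix that they secrete themselves, carry vimentin filaments and express receptors for platelet-derived growth factor. The growing follicle depends on signals that pass between both tissues, and part of those signals are made in one tissue and received in the other.

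The marker genes separated both tissues in all 10 libraries. Krt5, a keratin of basal epithelial cells (mm10 chromosome 15, 101707070 to 101712898), was at 2386 and 2419 FPKM in outer root sheath and 917 and 764 FPKM in matrix. In the mesenchyme it was at 44.7 to 121 FPKM (median 71.0), a difference of 4.31 ± 0.22 on the log2(FPKM + 1) scale (± standard error, limma adjusted p = 1.39e-07). The groups did not overlap, and outer root sheath was the higher of the epithelial populations. Trp63, the transcription factor that keeps stratified epithelia in their identity, was at 366 and 352 FPKM in outer root sheath and 287 and 225 FPKM in matrix against 10.3 to 23.7 FPKM (median 13.96) in the mesenchyme. Cdh1, which encodes E-cadherin, was at 122 and 123 FPKM in outer root sheath and 147 and 118 FPKM in matrix. Its mesenchymal values were 5.61 and 7.42 FPKM in dermal sheath, 7.96 and 5.49 FPKM in papilla and 29.5 and 31.7 FPKM in fibroblasts, so fibroblasts were the highest of the mesenchymal populations and still below all epithelial libraries. Pdgfra, the alpha receptor for platelet-derived growth factor, was at 177 and 236 FPKM in dermal sheath, 142 and 192 FPKM in papilla and 56.0 and 69.5 FPKM in fibroblasts. In the epithelium it was at 0.133 to 0.712 FPKM, a difference of -6.61 ± 0.18 (limma adjusted p = 5.39e-09). Pdgfrb, the beta receptor, was at 28.7 to 58.3 FPKM (median 41.8) in the mesenchyme and 0.211 to 0.735 FPKM in the epithelium. None of the 5 markers overlapped between the groups.

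**Figure D1:**
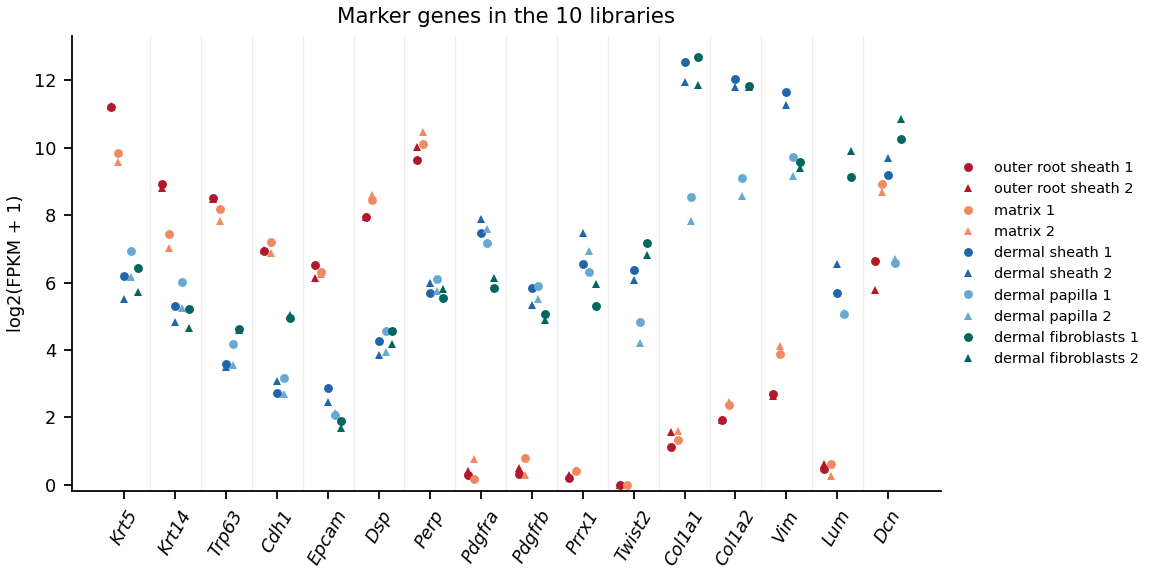
Marker genes in the 10 libraries, as log2(FPKM + 1) on the vertical axis, with 1 circle and 1 triangle per population for its libraries 1 and 2 and colours for the 5 populations. Epithelial markers from Krt5 to Perp are higher in the 4 epithelial libraries, Pdgfra to Lum are higher in the 6 mesenchymal libraries, and Dcn overlaps between the groups.

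Markers of each tissue were not equally low in the other. The 10 keratinocyte markers summed to 3401 to 5911 FPKM in the epithelium and 229 to 421 FPKM in the mesenchyme, where the median marker stood at 5.55% of its epithelial level (5.18% in sheath, 5.73% in papilla and 7.07% in fibroblasts). The 10 dermal markers summed to 1695 to 14425 FPKM in the mesenchyme, and the median marker stood at 0.257% of its mesenchymal level in the epithelium. The exception was Fbln1, a fibulin of the matrix, at 9.98 to 17.9 FPKM in the epithelium and 6.46 to 17.8 FPKM (median 12.9) in the mesenchyme, which was 119% of its mesenchymal level (104% in outer root sheath and 134% in matrix, not called). The sum of the 10 in the epithelium, 75.4 to 124 FPKM in outer root sheath and 447 to 520.4 FPKM in matrix, was mostly Dcn, and Twist2 was the marker listed at 0 in all epithelial libraries. None of the 10 keratinocyte markers was listed at 0 in the mesenchyme. A melanocyte list of 10 genes summed to 7306 and 7782 FPKM in the fibroblast libraries, against 34.0 to 105 FPKM in sheath and papilla, 21.2 to 29.9 FPKM in the epithelium and 13703 to 16555 FPKM in the melanocyte libraries. A list of 8 mast cell and lymphocyte genes was also highest in the fibroblast libraries, at 161 and 173 FPKM against 2.81 to 22.1 FPKM elsewhere in the comparison, of which Kit, shared with melanocytes, gave 154 and 166 FPKM. A list of 8 pericyte genes was highest in sheath, at 209.6 and 241 FPKM against 17.7 to 85.5 FPKM elsewhere. Cd3g of the former list and Ndufa4l2 of the latter were listed at 0 in all epithelial libraries, and no melanocyte marker was at 0 throughout a side. Lists for endothelial, macrophage, Schwann cell, adipocyte, muscle and erythroid cells summed to at most 128 FPKM in any of the 10 libraries. The part of other cells in the values that follow was not tested, and in sorted pools fewer cells of a type and less RNA per cell cannot be told apart.

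Across the whole table, 13831 genes reached 1 FPKM in at least 2 of the 10 libraries and were tested in 1 limma fit of the 5 populations. At an adjusted p under 0.05 and a difference of at least 2-fold, 2148 genes (15.5% of those tested) were higher in epithelium and 2914 (21.1%) were higher in mesenchyme. Over all tested genes the log2 difference, epithelium minus mesenchyme, had a median of -0.07, and quantile normalization moved it to 0.07. After quantile normalization 2510 genes were higher in epithelium and 2511 in mesenchyme, and the sides held 706 and 637 genes. Which tissue had more genes thus depended on the scaling. When the 5 populations instead of the 10 libraries were taken as replicates, 1624 genes were higher in epithelium and 1561 in mesenchyme. Of the marker lists above, all 10 melanocyte genes were among those higher in mesenchyme, and 0 were with populations as replicates. For Schwann cell markers the counts were 6 of 8 tested and 1, and for macrophage markers 3 of 8 tested and 1. For the lists counted below, counts of that stricter kind are given where they differ by more than 1.5-fold. The gap rule is stricter: 4.39% of tested genes were on the epithelial side and 5.43% on the mesenchymal side. All 607 and all 751 of them were also called by limma, as the rule uses the same values. Without the outer root sheath libraries the rule found 1003 and 1170 genes, and without the matrix libraries 862 and 954. With fewer libraries the rule can only gain genes, and why these counts differ was not tested.

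**Figure D2:**
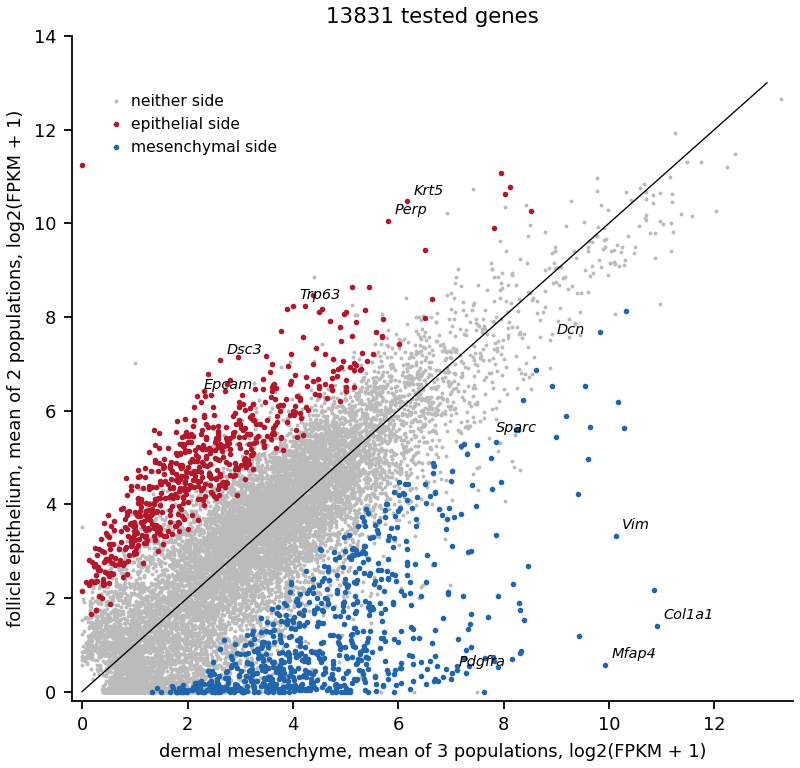
Mean log2(FPKM + 1) of the 13831 tested genes in dermal mesenchyme (horizontal, mean of 3 populations) and follicle epithelium (vertical, mean of 2 populations), 1 point per gene. The 607 genes of the epithelial side are red, the 751 of the mesenchymal side blue and all others grey, and the line marks equal levels. Many mesenchymal side genes lie at the bottom edge near 0 in epithelium, and few epithelial side genes lie at the left edge.

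The 2 sides differed in how cleanly they separated. On the mesenchymal side 307 of 751 genes (40.9%) were under 1 FPKM in every epithelial library, and on the epithelial side 53 of 607 genes (8.73%) were under 1 FPKM in every mesenchymal library. Over the whole table, 11105 to 11451 genes reached 1 FPKM in the epithelial libraries and 12001 to 12413 in the mesenchymal ones. Genes listed at 0 numbered 4393 to 5058 in the epithelial and 2677 to 3391 in the mesenchymal libraries. How far this general difference accounts for the shares was not tested. Between the lowest library of the higher side and the highest library of the other, the median gap was 2.86-fold on the epithelial side and 3.21-fold on the mesenchymal side. A gap of at least 8-fold was found for 18 epithelial and 120 mesenchymal genes. Among side genes with a mean of at least 5 FPKM on their own side, the median epithelial gene stood at 10.1% of its level in sheath, 14.2% in papilla and 14.8% in fibroblasts. The median mesenchymal gene stood at 4.46% of its level in outer root sheath and 2.38% in matrix. These shares are descriptions of genes the rule selected. The part of epithelial RNA in the mesenchymal libraries was not tested.

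**Figure D3:**
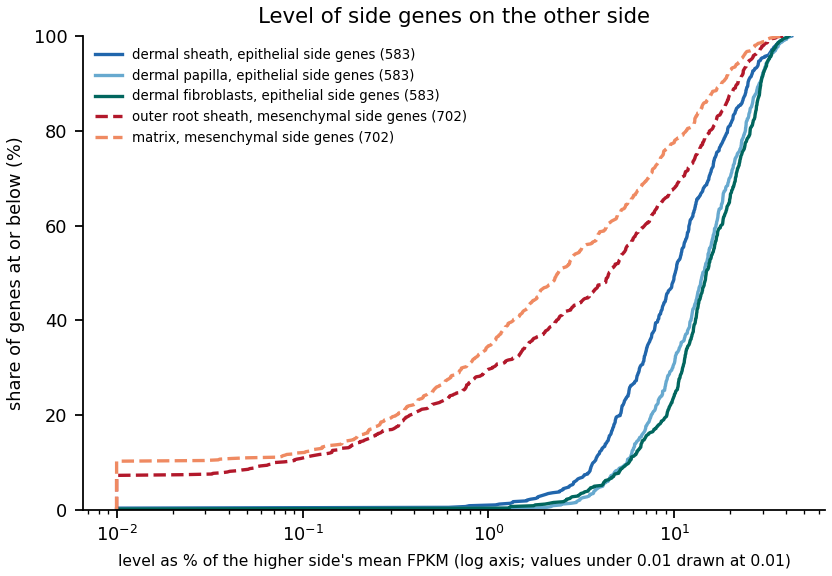
Cumulative share of side genes (vertical, %) by their level in each population of the opposite side, as a percentage of the mean FPKM on their own side (horizontal, log axis, values under 0.01% drawn at 0.01%). Solid lines are 583 epithelial side genes read in dermal sheath, papilla and fibroblasts, dashed lines are 702 mesenchymal side genes read in outer root sheath and matrix. The dashed lines lie to the left, with medians of 4.46% and 2.38% against 10.1% to 14.8%.

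The largest epithelial gaps belonged to Malat1, Dsc3, Fzd5, Perp, Car12, Dsp, Ptn, Epcam, Esrp1 and Grhl2. Malat1, a long noncoding nuclear RNA, was at 2634 and 4217 FPKM in outer root sheath and 1734 and 1815 FPKM in matrix and was listed at 0 in all 6 mesenchymal libraries. In the melanocyte libraries it was at 3727 and 5039 FPKM, so the listing at 0 coincided with the 3 dermal populations and with their block of sample numbers. A value of 0 in this table can be a failed estimate, so this gap may not be one of expression. Fzd5, a WNT receptor, was at 55.1 and 56.4 FPKM in outer root sheath and 54.6 and 55.3 FPKM in matrix against 1.67 to 3.36 FPKM (median 3.22). Car12, a membrane carbonic anhydrase, was at 61.9 and 61.5 FPKM in outer root sheath and 34.2 and 38.3 FPKM in matrix against 0.418 to 2.18 FPKM (median 1.94). Ptn, the secreted heparin-binding factor pleiotrophin, was at 112 and 121 FPKM in outer root sheath and 166 and 169 FPKM in matrix against 4.13 to 10.5 FPKM (median 7.28). These genes were picked by their gap, so that their ranges do not overlap follows from the rule. On the mesenchymal side the largest gaps belonged to Mfap4, Serpinf1, Col6a3, Col1a1, Col1a2, Mir1188, Apod, Serping1, Fkbp10 and Col15a1. Serpinf1, the secreted factor PEDF, was at 427 to 1122 FPKM (median 769) against 0.0954 to 2.36 FPKM in the epithelium. Apod, a secreted lipid carrier, was at 151 to 297 FPKM (median 199) against 0.104 to 1.62 FPKM. Serping1, the inhibitor of complement C1, was at 119 to 661 FPKM (median 143) against 0.360 to 1.11 FPKM. Most of the 10 mesenchymal genes thus encode secreted proteins. Mir1188, a microRNA entry, was at 65.7 to 284 FPKM (median 234) and was listed at 0 in the epithelium.

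Near the threshold, membership turned on small differences. Just inside it on the epithelial side were Mical3, Myh14 and Clcc1, and just outside it were Cwf19l1, Gcnt1 and Mthfd1. On the mesenchymal side Rpp21, Fgf7 and Kdelr2 were just inside, and B3gat3, Fah and Tmem14a just outside. The nearest genes outside had gaps of 1.999-fold (Cwf19l1) and 1.999-fold (B3gat3). Krt14, the partner of Krt5, missed the epithelial side at a gap of 1.997-fold. It was at 484 and 442 FPKM in outer root sheath and 174 and 128 FPKM in matrix against 24.3 to 63.8 FPKM (median 36.5), without overlap, and was called by limma (2.83 ± 0.20, adjusted p = 1.34e-06).

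Transcription factors fell into opposite blocks. Of 26 tested factors known from epithelia, 22 were higher in epithelium, 1 was higher in mesenchyme and 3 were not called, with a median log2 difference of 2.72, and 11 were on the epithelial side. With populations as replicates 14 were higher in epithelium and none in mesenchyme. Grhl2, a grainyhead-like factor that drives junction genes, was at 39.8 and 37.2 FPKM in outer root sheath and 33.5 and 33.2 FPKM in matrix against 1.18 to 2.70 FPKM (median 1.60) and differed by 3.74 ± 0.19 on the log2 scale (limma adjusted p = 1.36e-07). Cux1, a homeodomain factor, was at 286 and 198 FPKM in outer root sheath and 392 and 294 FPKM in matrix against 32.2 to 48.7 FPKM (median 40.9). Grhl2 was even across the 4 epithelial libraries. The exception was Klf4, a factor of the differentiating layers, at 16.4 and 12.2 FPKM in outer root sheath and 60.3 and 34.1 FPKM in matrix. Its mesenchymal values were 148 and 161 FPKM in dermal sheath, 56.4 and 44.8 FPKM in papilla and 39.6 and 31.4 FPKM in fibroblasts, with both sheath libraries above all others. Its call was lost without the sheath or the outer root sheath libraries and with populations as replicates.

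Of 30 tested factors known from mesenchyme, 23 were higher in mesenchyme, 1 was higher in epithelium and 6 were not called, with a median log2 difference of -3.08, and 15 were on the mesenchymal side. The count in mesenchyme was 15 with populations as replicates. Prrx2 and Prrx1, paired-related homeobox factors of limb and skin mesenchyme, were at 40.4 to 139 FPKM (median 64.3) and 38.4 to 178 FPKM (median 85.5). In the epithelium they were at 0 to 0.133 FPKM and 0.138 to 0.357 FPKM. Tbx15, a T-box factor of dermis and skeleton, was at 302 and 342 FPKM in dermal sheath, 91.4 and 111 FPKM in papilla and 58.5 and 70.1 FPKM in fibroblasts against 0 to 0.692 FPKM in the epithelium (-6.75 ± 0.18, limma adjusted p = 4.15e-09). Twist2, a basic helix-loop-helix factor of dermal precursors, was at 17.5 to 143 FPKM (median 74.2) and was listed at 0 in all epithelial libraries. All 4 were thus well above 10 FPKM in each mesenchymal library and under 1 FPKM in each epithelial one. Scx, a factor of tendon cells, went the other way at low level, with 0.795 to 6.88 FPKM in the epithelium and 0.109 to 1.78 FPKM (median 0.765) in the mesenchyme, and was not called without the outer root sheath libraries. The repressors of Cdh1 did not move as 1 group. Chosen after their values were seen, Zeb1 was at 4.19 to 29.8 FPKM (median 17.0) against 0 to 0.228 FPKM, and Zeb2 at 25.5 to 154 FPKM (median 66.6) against 0.113 to 0.644 FPKM. Snai1 was at 7.52 to 23.7 FPKM (median 17.4) against 0 to 0.267 FPKM, and all 3 were on the mesenchymal side. The melanocyte libraries also held Zeb2, at 58.3 and 80.1 FPKM. Snai2 was not called (-0.05 ± 0.28, adjusted p = 0.895), with 42.7 and 56.7 FPKM in outer root sheath and 26.0 and 12.7 FPKM in matrix. Its mesenchymal values were 10.4 and 24.7 FPKM in dermal sheath, 87.8 and 123 FPKM in papilla and 13.9 and 21.8 FPKM in fibroblasts, so papilla was the highest and outer root sheath stood above sheath and fibroblasts.

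**Figure D4:**
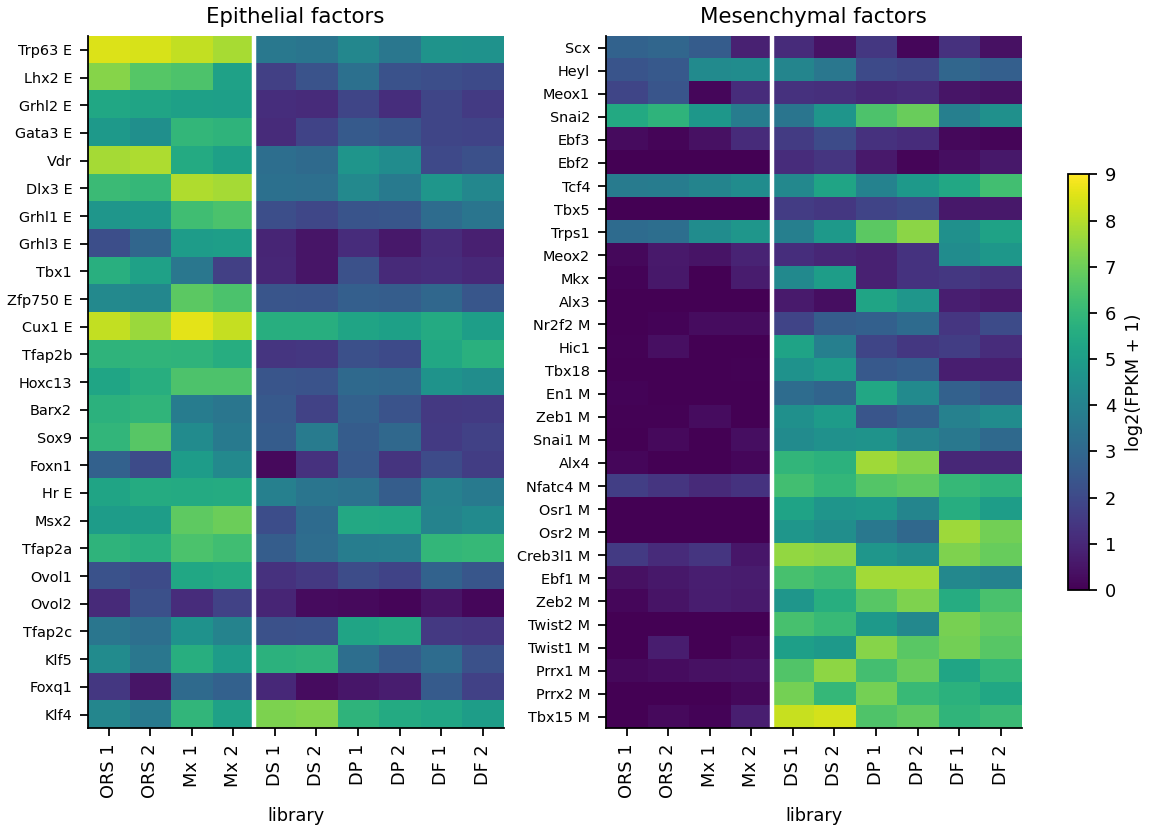
Levels of the tested epithelial transcription factors (left, all but 1) and of 30 mesenchymal ones (right) in 10 libraries (columns; ORS outer root sheath, Mx matrix, DS dermal sheath, DP dermal papilla, DF dermal fibroblasts), coloured by log2(FPKM + 1) and ordered by the log2 difference. The white line divides epithelium from mesenchyme, and E or M marks side genes. The lower rows on the right are dark in all 4 epithelial libraries, while most rows on the left keep some signal in the mesenchymal libraries.

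The Zeb and Snail repressors bind the E-box CAGGTG, and promoters of epithelial side genes were read for it. The window ran from 250 bases before to 50 bases after the transcription start, from the RefSeq table on GRCm38.p6, and both strands were searched (CAGGTG or CACCTG). Of 87 epithelial side genes in the gene lists, 48 had a promoter in the table, 14 of these held at least 1 match and 5 held 2 or more (Ap1m2, Epcam, Grhl3, Lama5 and Pard6b). Over whole sides, 25.1% of 414 epithelial side promoters and 16.2% of 506 mesenchymal side promoters held a match, against 20.8% of tested genes and 22.6% of all 27025 promoters. The 3 promoters shown belong to genes whose levels are given here for adhesion (Epcam), membrane sorting (Ap1m2) and transcription (Grhl3), each printed 5′ to 3′ on the gene's strand with the matched E-box letters in capitals. Epcam lies at chr17:87635729-87636028 (plus strand), Ap1m2 at chr9:21312284-21312583 (minus strand) and Grhl3 at chr4:135573583-135573882 (minus strand), and they hold 2, 4 and 2 matches. A match is a description of the letters and not a measured binding site.
Epcam: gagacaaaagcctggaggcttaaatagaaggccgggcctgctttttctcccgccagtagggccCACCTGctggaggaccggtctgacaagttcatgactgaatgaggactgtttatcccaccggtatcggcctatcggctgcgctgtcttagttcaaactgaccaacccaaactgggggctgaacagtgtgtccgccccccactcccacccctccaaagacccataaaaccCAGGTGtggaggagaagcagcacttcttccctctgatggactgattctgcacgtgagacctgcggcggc
Ap1m2: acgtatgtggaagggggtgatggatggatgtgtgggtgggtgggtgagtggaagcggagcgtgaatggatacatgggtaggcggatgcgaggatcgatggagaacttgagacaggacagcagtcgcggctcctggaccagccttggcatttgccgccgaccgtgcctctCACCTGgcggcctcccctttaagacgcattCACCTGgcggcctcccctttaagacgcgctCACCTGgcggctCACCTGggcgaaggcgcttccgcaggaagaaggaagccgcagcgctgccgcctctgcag
Grhl3: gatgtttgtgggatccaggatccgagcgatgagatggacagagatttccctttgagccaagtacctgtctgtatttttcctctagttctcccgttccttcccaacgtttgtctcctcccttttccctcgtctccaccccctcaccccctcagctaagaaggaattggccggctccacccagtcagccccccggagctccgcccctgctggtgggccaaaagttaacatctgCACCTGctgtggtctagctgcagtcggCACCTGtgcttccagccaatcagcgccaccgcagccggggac

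Beside these promoters stand the levels of their genes. Epcam, a surface adhesion protein of epithelia, was at 91.5 and 69.5 FPKM in outer root sheath and 78.6 and 75.1 FPKM in matrix against 2.22 to 6.35 FPKM (median 3.26). Ap1m2, the epithelial form of a clathrin adaptor subunit, was at 17.4 and 12.9 FPKM in outer root sheath and 18.3 and 16.9 FPKM in matrix against 0.838 to 1.55 FPKM (median 0.934). Grhl3, a grainyhead-like factor of barrier formation, was at 3.47 and 6.77 FPKM in outer root sheath and 30.4 and 31.6 FPKM in matrix against 0.419 to 1.21 FPKM (median 0.824), and its matrix libraries were the higher epithelial ones. Among other motifs, AACCGGTT, which grainyhead-like factors bind, was found in 1 of 414 epithelial side promoters (0.242%) and 2 of 506 mesenchymal side promoters (0.395%). The shares were 0.298% of tested genes and 0.174% of all promoters, and counts this low allow no comparison of the sides. GCCNNNGGC, which Tfap2 factors bind, was found in 25.4% of epithelial side and 33.8% of mesenchymal side promoters (29.1% of tested genes, 18.5% of all promoters).

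Splicing regulators followed the same division. Esrp1, an RNA-binding protein that selects epithelial exons, for example in Fgfr2, was at 85.0 and 86.9 FPKM in outer root sheath and 99.9 and 104 FPKM in matrix against 3.78 to 8.00 FPKM (median 6.21) (3.81 ± 0.15, limma adjusted p = 2.89e-08). Esrp2, its paralog, was at 28.1 and 23.9 FPKM in outer root sheath and 60.1 and 46.6 FPKM in matrix against 1.55 to 4.34 FPKM (median 2.57). Together with Rbm47, all 3 tested regulators were higher in epithelium, though Rbm47 was not called with populations as replicates. The table gives 1 value per gene, so exon use was not measured here.

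In the desmosome, tight junction and adherens junction lists, genes were higher in epithelium or not called, and none of those tested was higher in mesenchyme. Cadherins known from mesenchyme were kept in a separate list, given below. Of 17 tested desmosome genes, 16 were higher in epithelium and 1 (Pkp4) was not called, with 11 on the epithelial side and a median log2 difference of 3.16 against -0.07 for all tested genes. Dsc3, a desmosomal cadherin, was at 129.6 and 143 FPKM in outer root sheath and 111 and 154 FPKM in matrix against 3.83 to 5.94 FPKM (median 5.37), a gap of 16.1-fold (4.46 ± 0.16, limma adjusted p = 2.33e-08). Dsp, which ties desmosomes to keratin filaments, was at 246 and 244 FPKM in outer root sheath and 346 and 388 FPKM in matrix against 13.4 to 22.7 FPKM (median 17.6). Perp, a membrane protein of desmosomes, was at 796 and 1044 FPKM in outer root sheath and 1109 and 1400.4 FPKM in matrix against 45.2 to 68.3 FPKM (median 53.8). Pkp1, a plaque protein, was at 69.7 and 63.2 FPKM in outer root sheath and 112 and 104 FPKM in matrix against 4.69 to 6.42 FPKM (median 5.49). For each of these genes the epithelial libraries lay within 2-fold of each other. Their distance from all mesenchymal libraries follows from the rule, as all are side genes.

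Tight junction genes were higher in epithelium for 11 of 15 tested, none was higher in mesenchyme, and 8 were on the epithelial side. Cldn1, the claudin of the skin barrier, was at 74.1 and 87.1 FPKM in outer root sheath and 118 and 127 FPKM in matrix against 3.81 to 8.05 FPKM (median 6.09). Cxadr, an adhesion protein of tight junctions, was at 41.4 and 39.6 FPKM in outer root sheath and 53.0 and 43.5 FPKM in matrix against 2.79 to 4.44 FPKM (median 3.94), and F11r, which encodes JAM-A, was at 30.1 to 50.6 FPKM against 2.22 to 4.55 FPKM (median 3.30). Of 17 adherens junction and adhesion genes, 9 were higher in epithelium and 8 were not called. Plekha7, an adherens junction adaptor, was at 11.5 and 8.99 FPKM in outer root sheath and 11.3 and 8.73 FPKM in matrix against 0.235 to 1.43 FPKM (median 0.879). The catenins are shared by both tissues and, named after their values were seen, differed little: Ctnnb1 was at 353 to 452 FPKM in epithelium and 210.0 to 332 FPKM (median 247) in mesenchyme, and Ctnna1 at 104 to 132 FPKM and 63.2 to 142 FPKM (median 95.9). Neither passed the 2-fold threshold. Cdh3, which encodes P-cadherin, was called by limma (3.15 ± 0.18, adjusted p = 3.12e-07), though not with populations as replicates, and missed the side through 1 population, with 4.67 and 3.999 FPKM in dermal sheath, 8.996 and 5.02 FPKM in papilla and 74.0 and 52.0 FPKM in fibroblasts against 110.5 to 126 FPKM in the epithelium. In the melanocyte libraries Cdh3 was at 183 and 130.4 FPKM, and melanocyte markers were high in the same fibroblast libraries. Without the fibroblast libraries the epithelial side held 764 genes and the mesenchymal side 1042.

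The mesenchyme carried its own cadherins and surface proteins, with 20 of 23 tested genes higher in mesenchyme, none higher in epithelium and 14 on the mesenchymal side (median log2 difference -3.45). Taking populations as replicates gave a count of 12. Cdh11, the cadherin of mesenchymal cells, was at 256 and 471 FPKM in dermal sheath, 322 and 431 FPKM in papilla and 66.0 and 112 FPKM in fibroblasts against 0.218 to 1.19 FPKM in the epithelium (-7.17 ± 0.25, limma adjusted p = 1.61e-08). Mrc2, a receptor that takes up collagen, was at 40.04 to 72.4 FPKM (median 46.8) against 0.617 to 2.04 FPKM. Cdh11 was lowest in fibroblasts and Mrc2 was similar in all 3 dermal populations.

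Genes that tie epithelial cells to the basement membrane were higher in epithelium for 10 of 14 tested, with 7 on the epithelial side. Fermt1, an integrin activator of keratinocytes, was at 30.5 and 36.3 FPKM in outer root sheath and 17.5 and 21.6 FPKM in matrix against 0.452 to 1.85 FPKM (median 1.01). Itga3, an integrin chain of laminin receptors, was at 47.8 and 38.5 FPKM in outer root sheath and 17.7 and 17.7 FPKM in matrix against 1.20 to 3.41 FPKM (median 1.72). Col17a1, the transmembrane collagen of hemidesmosomes, was at 109 and 107 FPKM in outer root sheath and 32.7 and 22.4 FPKM in matrix against 2.50 to 5.35 FPKM (median 2.75). Col7a1, the collagen of anchoring fibrils, was the exception and was higher in mesenchyme, at 15.0 and 8.79 FPKM in dermal sheath, 11.98 and 6.83 FPKM in papilla and 68.1 and 46.4 FPKM in fibroblasts against 0.557 to 5.90 FPKM (-2.41 ± 0.25, limma adjusted p = 1.70e-05). It was not called with populations as replicates.

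Polarity and trafficking genes were higher in epithelium for 11 of 17 tested. Eps8l2, an actin regulator, was at 10.99 and 12.5 FPKM in outer root sheath and 9.56 and 11.05 FPKM in matrix against 0.159 to 1.55 FPKM (median 0.969), and Pard6b, a Par complex subunit, was at 11.4 to 16.2 FPKM against 0.215 to 2.33 FPKM (median 1.17). Macc1 was at 4.71 to 10.4 FPKM against 0.111 to 0.279 FPKM (median 0.186). Cdc42ep5, an effector of the small GTPase Cdc42, was higher in mesenchyme, with 12.2 to 64.1 FPKM (median 20.1) against 2.40 to 6.58 FPKM. The 7 tested membrane serine proteases and their inhibitors were all higher in epithelium, and 2 were on its side. Prss22 was at 4.95 to 15.0 FPKM against 0 to 0.825 FPKM (median 0.243), and Tmprss13 was at 5.18 to 8.90 FPKM against 0.281 to 1.06 FPKM (median 0.623).

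Keratins were found in both directions. Of 31 tested keratins, 17 were higher in epithelium, 2 were higher in mesenchyme and 12 were not called, and 4 were on the epithelial side (Krt5, Krt15, Krt80 and Krt79). With populations as replicates 8 were higher in epithelium and none in mesenchyme. Krt15, a keratin of basal and outer root sheath cells, was at 795 and 843 FPKM in outer root sheath and 119 and 83.2 FPKM in matrix against 9.90 to 28.5 FPKM (median 11.4), so outer root sheath was well above matrix. Krt79, found in the sebaceous duct, was at 70.3 and 53.4 FPKM in outer root sheath and 91.0 and 56.6 FPKM in matrix in the epithelium. In the mesenchyme it was at 23.1 and 10.6 FPKM in dermal sheath, 7.46 and 3.00 FPKM in papilla and 1.41 and 0.334 FPKM in fibroblasts, with sheath the highest. The keratins higher in mesenchyme were the hair keratins Krt34 and Krt86, both at low level. Krt34 was at 0.527 to 4.16 FPKM (median 2.07) against 0 to 0.800 FPKM, and Krt86 at 0.696 to 7.82 FPKM (median 1.88) against 0 to 1.04 FPKM. Neither was called after quantile normalization or with a pseudocount of 5 in place of 1 (log2 difference -0.40 and -0.42). Krt34 (-1.17 ± 0.24) also lost its call without fibroblasts (-0.97), papilla (-0.99) or outer root sheath library 1 (-0.96). Krt86 was also not called after median centring, without the filter on low values or with 2 groups of libraries. Nor was it called without the papilla, matrix or outer root sheath population. Krt86 (-1.01 ± 0.38) lost it without library 1 of fibroblasts, papilla, sheath or outer root sheath or without either matrix library, with values from -1.08 to -0.74. Vim, which encodes vimentin, was at 3230.1 and 2441 FPKM in dermal sheath, 853 and 567 FPKM in papilla and 759 and 669 FPKM in fibroblasts. In the epithelium it was at 5.22 to 16.2 FPKM (-6.80 ± 0.16, limma adjusted p = 2.42e-09). Its lowest mesenchymal library was 33.0-fold above the highest epithelial one in FPKM + 1. Among nuclear lamins, Lmnb1 was on the epithelial side at 58.0 to 60.04 FPKM against 2.30 to 6.13 FPKM (median 5.10), and Lmna, named after its values were seen, was higher in mesenchyme at 74.1 to 332 FPKM (median 163) against 29.0 to 90.9 FPKM, a call lost with populations as replicates.

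Genes of the interstitial matrix were almost entirely mesenchymal. Of 19 tested interstitial collagens, 18 were higher in mesenchyme and 1 (Col8a1) was not called, with 11 on the mesenchymal side and a median log2 difference of -4.35. The count was 11 with populations as replicates. Col1a1, a chain of type I collagen (mm10 chromosome 11, 94936224 to 94953042), was at 5972 and 3998 FPKM in dermal sheath, 372 and 225 FPKM in papilla and 6571 and 3744 FPKM in fibroblasts. In the epithelium it was at 1.17 to 1.99 FPKM (-9.51 ± 0.23, limma adjusted p = 2.42e-09). Papilla was the lowest dermal population, and its lower library was still 75.6-fold above the highest epithelial one in FPKM + 1. Col1a2, the partner chain, was at 381 to 4169 FPKM (median 3556) against 2.75 to 4.43 FPKM. Col6a3, a chain of the beaded filament collagen VI, was at 476 and 386 FPKM in dermal sheath, 272 and 211 FPKM in papilla and 313 and 295 FPKM in fibroblasts against 0.583 to 1.28 FPKM, and it varied much less among the dermal populations. Col15a1, a collagen near basement membranes, was at 67.9 to 394 FPKM (median 158) against 0.110 to 0.574 FPKM. Col3a1, the collagen III chain, was called (-4.19 ± 0.17, adjusted p = 4.63e-08) but on no side, with 1188 and 1395 FPKM in dermal sheath, 554 and 535 FPKM in papilla and 2.21 to 5.54 FPKM in the epithelium. The call was lost with populations as replicates (limma adjusted p = 0.347) and with 2 groups of libraries (0.126). It was listed at 0 in both fibroblast libraries, where Col1a1 and Col1a2 were high, and this too may be a failed estimate. Over all rows, 27 genes were listed at 0 in both libraries of 1 population with at least 10 FPKM in another of the same side.

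Collagen processing genes followed the collagens, with 19 of 21 tested higher in mesenchyme, none higher in epithelium and 12 on the mesenchymal side. Fkbp10, a chaperone of procollagen folding, was at 74.1 to 113 FPKM (median 91.0) against 0.153 to 0.622 FPKM, with little spread among the dermal libraries (-6.08 ± 0.16, limma adjusted p = 4.42e-09). Pcolce, which speeds removal of the procollagen C-propeptide, was at 94.6 to 702 FPKM (median 449) against 1.06 to 2.58 FPKM. Loxl1, a cross-linking oxidase, was at 20.8 to 117 FPKM (median 32.2) against 0.0391 to 0.260 FPKM, and Adamts2, the N-propeptide protease, was at 18.3 to 81.1 FPKM (median 54.3) against 0 to 0.599 FPKM.

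Of 40 matrix glycoproteins and proteoglycans, 35 were higher in mesenchyme, 2 were higher in epithelium and 3 were not called, with 20 on the mesenchymal side and 1 on the epithelial side. Taking populations as replicates gave 20 higher in mesenchyme and 1 in epithelium. Mfap4, a microfibril protein, had the largest gap of the mesenchymal side, at 1205 and 1014 FPKM in dermal sheath, 386 and 228 FPKM in papilla and 3231 and 2476 FPKM in fibroblasts against 0.424 to 0.534 FPKM (-9.36 ± 0.17, limma adjusted p = 6.37e-10). Lum, the proteoglycan lumican, was at 32.4 to 960.2 FPKM (median 71.6) against 0.197 to 0.538 FPKM, and Fbn1, the microfibril component fibrillin, was at 122 to 377 FPKM (median 273) against 1.70 to 5.55 FPKM. Mfap2, another microfibril protein, was at 244 to 525 FPKM (median 352) against 0.581 to 14.8 FPKM. The members higher in epithelium were Has3, a hyaluronan synthase, at 6.94 and 6.09 FPKM in outer root sheath and 18.2 and 20.1 FPKM in matrix against 0.793 to 1.54 FPKM (median 1.22), and Tnc, the glycoprotein tenascin C, at 107 and 111 FPKM in outer root sheath and 14.6 and 11.1 FPKM in matrix against 3.49 to 13.7 FPKM (median 6.41). Tnc was not called with populations as replicates, nor without the outer root sheath libraries (0.86 against 2.36 ± 0.17). Dcn, the proteoglycan decorin and a common fibroblast marker, was on no side. It was at 98.0 and 54.0 FPKM in outer root sheath and 482 and 407 FPKM in matrix. In the mesenchyme it was at 583 and 825 FPKM in dermal sheath, 93.6 and 103 FPKM in papilla and 1236 and 1841 FPKM in fibroblasts, so both matrix libraries and 1 outer root sheath library lay above a papilla library. Its difference of -1.38 ± 0.21 became -0.085 without outer root sheath and -0.54 without fibroblasts, and neither was called. It was not called with populations as replicates either. Sparc, a matricellular protein, was listed at 0 in both sheath libraries, which may be a failed estimate. It was at 1181 and 1063 FPKM in papilla and 7817 and 9367 FPKM in fibroblasts, and at 31.6 to 54.7 FPKM in the epithelium. Without the fibroblast libraries its difference turned from -2.32 ± 0.13 to 0.34 (not called), and with populations as replicates it was not called.

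**Figure D5:**
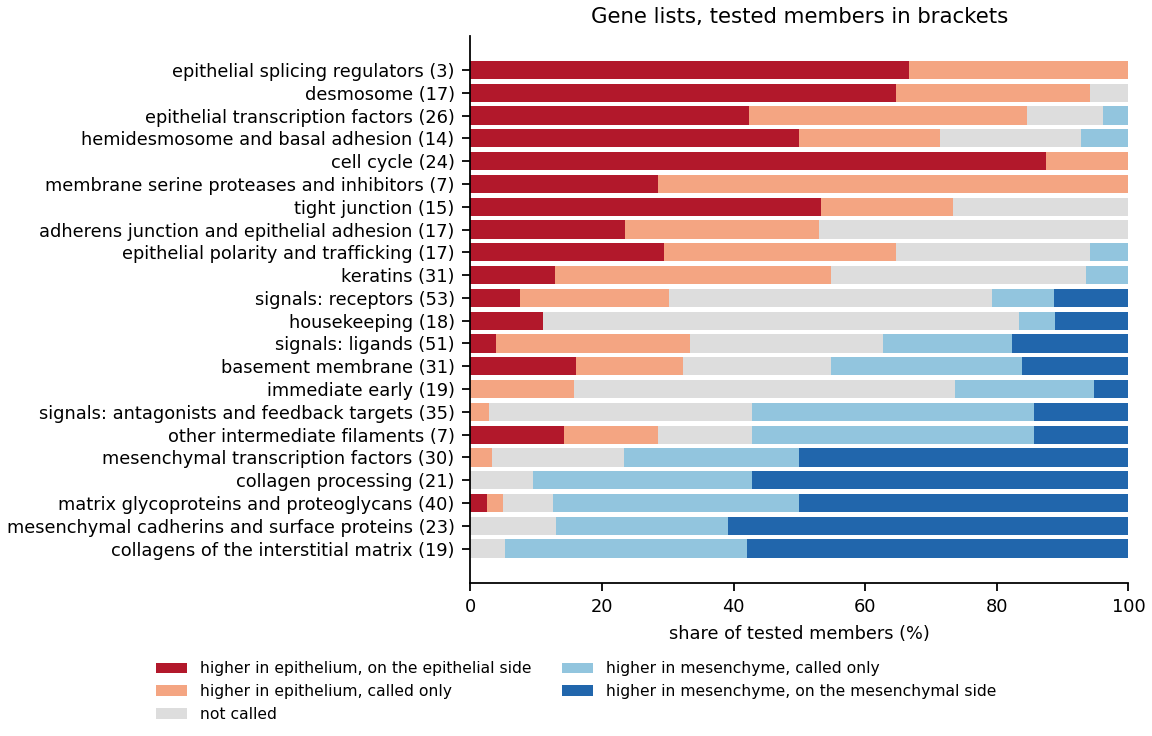
Share of tested members (horizontal, %) of 22 gene lists that were higher in epithelium (red shades), not called (grey) or higher in mesenchyme (blue shades) in the limma fit, with the darker shade for side genes and lists ordered by median log2 difference. Desmosome, cell cycle and epithelial factor lists are mostly red, matrix and collagen lists mostly blue, and basement membrane, ligand and receptor lists hold both. Over all tested genes the shares were 15.5% and 21.1%.

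Basement membrane genes came from both sides. Of 31 tested, 10 were higher in epithelium and 14 in mesenchyme, with 5 on each side and a median log2 difference of -0.34. With populations as replicates 5 were higher in epithelium and 6 in mesenchyme. Laminin chains stood on both sides. Lama3, the alpha chain of the laminin beneath hemidesmosomes, was at 35.4 and 33.3 FPKM in outer root sheath and 19.1 and 12.004 FPKM in matrix against 0.487 to 2.17 FPKM (median 0.930). Lama2, a laminin alpha chain known from muscle and nerve, was at 30.7 to 205 FPKM (median 152) against 0.0258 to 0.283 FPKM, and Lama4, one known from vessels, was at 21.9 to 43.0 FPKM (median 39.7) against 0.251 to 2.07 FPKM. Lama5, an alpha chain common in epithelial basement membranes, was epithelial at 18.9 to 70.2 FPKM against 1.34 to 5.73 FPKM (median 3.20). The nidogens, which link laminin to collagen IV, were mesenchymal: Nid1 was at 53.0 to 681 FPKM (median 261) against 1.54 to 2.34 FPKM (-6.11 ± 0.14, limma adjusted p = 2.19e-09) and Nid2 at 15.2 to 205 FPKM (median 20.2) against 0.167 to 1.02 FPKM. The Frem proteins, which act beneath the lamina densa, also stood on both sides, with Frem2 at 11.3 to 23.6 FPKM against 0.584 to 1.79 FPKM (median 1.11) on the epithelial side and Frem1 at 8.90 to 139.6 FPKM (median 15.7) against 0.458 to 1.25 FPKM on the mesenchymal side.

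Signalling genes stood on both sides. Of 51 tested ligands, 17 were higher in epithelium, 19 in mesenchyme and 15 were not called, with 2 on the epithelial and 9 on the mesenchymal side. Of 53 tested receptors, 16 were higher in epithelium, 11 in mesenchyme and 26 were not called, with 4 on the epithelial side (Fzd6, Egfr, Edar and Notch1) and 6 on the mesenchymal side. Fzd5, described above, is not in the list. Of all tested genes 15.5% were higher in epithelium and 21.1% in mesenchyme, and the share of receptors higher in mesenchyme was close to the latter. With populations as replicates 4 ligands and 7 receptors were higher in epithelium and 9 ligands and 6 receptors in mesenchyme. By that count 1624 and 1561 of all 13831 tested genes were higher in epithelium and mesenchyme. The receptor shares were close to these, and the share of ligands higher in epithelium was below. Pdgfa, a ligand of the platelet-derived growth factor family, was at 182 and 139 FPKM in outer root sheath and 105 and 58.0 FPKM in matrix against 5.16 to 23.0 FPKM (median 9.53) and differed by 3.25 ± 0.31 (limma adjusted p = 8.93e-06). Its receptor Pdgfra was on the opposite side with the values given above. Jag2, a ligand of the Notch pathway, was at 52.2 and 39.9 FPKM in outer root sheath and 38.8 and 25.2 FPKM in matrix against 0.865 to 5.01 FPKM (median 2.97). Its receptor Notch1 was at 33.3 and 30.3 FPKM in outer root sheath and 85.6 and 82.5 FPKM in matrix against 5.66 to 14.5 FPKM (median 9.29), so both were on the epithelial side, the ligand highest in outer root sheath and the receptor in matrix.

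Fgf7, Fgf18 and the R-spondins Rspo1, Rspo3 and Rspo4 were on the mesenchymal side. With populations as replicates Fgf7, Fgf18 and Rspo4 were not called (limma adjusted p = 0.102, 0.119 and 0.161). Fgf7, which signals to epithelia, was at 14.4 and 41.5 FPKM in dermal sheath, 348 and 666 FPKM in papilla and 3.59 and 5.30 FPKM in fibroblasts against 0 to 1.29 FPKM, with fibroblasts just inside the threshold. Its receptor gene Fgfr2 was called but on no side, at 137 and 118 FPKM in outer root sheath and 165 and 138 FPKM in matrix. In papilla it was higher than in each epithelial library (28.0 and 29.0 FPKM in dermal sheath, 212 and 206 FPKM in papilla and 44.8 and 47.2 FPKM in fibroblasts). The call (1.08 ± 0.13) was lost without sheath, fibroblasts or matrix and with populations as replicates. Rspo1, a secreted amplifier of WNT signals, was at 56.2 and 42.2 FPKM in dermal sheath, 317 and 203 FPKM in papilla and 81.1 and 64.6 FPKM in fibroblasts against 0 to 1.87 FPKM (-5.96 ± 0.19, limma adjusted p = 1.16e-08), and Rspo3 was at 13.3 to 614 FPKM (median 51.9) against 0.112 to 1.15 FPKM. Of the receptors for R-spondins, Lgr4, Lgr5 and Lgr6 were each called higher in epithelium and none was on a side. None of them was called with populations as replicates. Lgr5, a marker of active follicle stem cells, was at 93.9 and 102 FPKM in outer root sheath and 11.6 and 5.08 FPKM in matrix against 2.24 to 24.6 FPKM (median 7.64), and without the outer root sheath libraries its difference turned from 1.68 ± 0.23 to -0.070. Fzd6, a WNT receptor, was on the epithelial side at 20.7 to 32.8 FPKM against 1.82 to 8.28 FPKM (median 2.35).

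An endothelin ligand and its receptor were both on the mesenchymal side. Edn3, a peptide that acts on melanocytes, was at 18.1 and 31.5 FPKM in dermal sheath, 285 and 249 FPKM in papilla and 20.9 and 30.1 FPKM in fibroblasts against 0 to 0.445 FPKM. Ednrb, its receptor and a gene of melanocytes, was at 695 and 1272 FPKM in dermal sheath, 27.5 and 40.2 FPKM in papilla and 102 and 137 FPKM in fibroblasts against 0.599 to 1.41 FPKM. The melanocyte libraries had 602 and 458 FPKM of Ednrb, below both sheath libraries. Melanocyte markers summed to 34.0 to 43.1 FPKM in sheath, 98.6 to 105 FPKM in papilla and 7306 and 7782 FPKM in fibroblasts. The part of melanocyte RNA in the fibroblast values of Ednrb was not tested. Egfr, the receptor for epidermal growth factor ligands, was at 93.7 and 112 FPKM in outer root sheath and 76.3 and 98.3 FPKM in matrix against 6.08 to 33.7 FPKM (median 7.22). Edar, the ectodysplasin receptor, was at 2.60 to 8.82 FPKM against 0.118 to 0.620 FPKM (median 0.406), while its ligand Eda was not called (0.14 ± 0.17, adjusted p = 0.496) but was called higher in epithelium without papilla (1.02). Of the receptors for transforming growth factor beta, Tgfbr2 was at 33.0 to 149 FPKM (median 39.98) against 1.68 to 14.8 FPKM and Tgfbr3 at 24.0 to 76.6 FPKM (median 52.3) against 1.78 to 10.5 FPKM, both on the mesenchymal side.

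Secreted antagonists and feedback targets were higher in mesenchyme for 20 of 35 tested and higher in epithelium for 1, with 5 on the mesenchymal side. Of all tested genes 21.1% were higher in mesenchyme and 5.43% were on its side. The mesenchymal count was 4 with populations as replicates. That share was close to the one of all tested genes by the same count, 1561 of 13831. Sfrp2, a binder of WNT ligands, was at 23.8 to 116 FPKM (median 82.9) against 0.0683 to 0.627 FPKM (-5.54 ± 0.18, limma adjusted p = 1.08e-08). Fstl1, a follistatin-like glycoprotein, was at 753 to 2023 FPKM (median 1223) against 18.0 to 143 FPKM. Dusp6, a phosphatase induced by ERK signalling, was the member higher in epithelium, at 37.3 and 44.4 FPKM in outer root sheath and 21.3 and 26.6 FPKM in matrix against 3.85 to 12.9 FPKM (median 9.82).

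Cell cycle genes were higher in epithelium without exception, 24 of 24 tested (24 also with populations as replicates), with 21 on the epithelial side and a median log2 difference of 2.35. Mki67, a protein of cycling cells, was at 244 and 237 FPKM in outer root sheath and 323 and 298 FPKM in matrix against 14.5 and 16.2 FPKM in dermal sheath, 22.0 and 23.0 FPKM in papilla and 26.1 and 31.7 FPKM in fibroblasts (3.61 ± 0.13, limma adjusted p = 1.76e-08). Top2a, the topoisomerase of dividing cells, was at 190.1 and 199 FPKM in outer root sheath and 174 and 196 FPKM in matrix against 9.89 to 26.5 FPKM (median 18.3). Rrm2, a subunit of ribonucleotide reductase, was at 80.3 and 79.3 FPKM in outer root sheath and 105 and 84.0 FPKM in matrix against 6.85 to 11.9 FPKM (median 8.75). Outer root sheath and matrix were close to each other in all 3. Among 18 housekeeping genes 2 were higher in epithelium, 3 in mesenchyme and 13 were not called, with a median log2 difference of 0.06. Over all tested genes 15.5% and 21.1% were called, so limma called housekeeping genes no more often than others. By the gap rule 2 of the 18 were on each side, a larger share than 4.39% and 5.43% of all tested genes. Hprt was on the epithelial side at 39.4 to 45.0 FPKM against 8.41 to 18.1 FPKM (median 11.8), as was Tfrc at 22.7 to 83.8 FPKM against 1.56 to 5.87 FPKM (median 3.11). B2m was on the mesenchymal side at 231 to 428 FPKM (median 314) against 29.2 to 68.8 FPKM. Of 19 immediate early genes, which respond to handling of tissue, 3 were higher in epithelium, 5 in mesenchyme (3 with populations as replicates) and 11 were not called, which is near the 15.5% and 21.1% of all tested genes. Dusp1 was on the mesenchymal side at 137 to 332 FPKM (median 240.2) against 24.4 to 61.2 FPKM.

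Side genes also varied within each tissue. Among all tested genes 661 (4.78%) were higher in outer root sheath than in matrix, 376 (2.72%) were higher in matrix, and 3263 (23.6%) differed among the 3 dermal populations in limma's F-test by at least 2-fold. Of the 607 epithelial side genes, 23 were higher in outer root sheath (3.79%), 26 in matrix (4.28%) and 558 in neither. Of the 751 mesenchymal side genes, 375 (49.9%) differed among the dermal populations, with 170 highest in sheath, 133 in papilla and 72 in fibroblasts. The highest population was not counted for all 3263 differing genes, so this split cannot be read as particular to side genes. For comparison, 59 epithelial side genes (9.72%) differed among the dermal populations. The rule sets a floor above the other side for each library and no limit on the spread within a side. Among listed side genes the widest differences within the epithelium were those of Krt15, Grhl3 and Zfp750. Krt15 was 8.16-fold higher in outer root sheath (3.03 on the log2 scale, limma adjusted p = 0.000373). Zfp750, a zinc finger factor of late epidermal differentiation, was at 17.6 and 16.9 FPKM in outer root sheath and 106 and 87.2 FPKM in matrix, the higher values being those of matrix. In the mesenchyme the widest were Fgf7, Rspo4 and Col11a1. Rspo4, an R-spondin, was at 5.44 and 4.30 FPKM in dermal sheath, 325 and 301 FPKM in papilla and 2.87 and 4.33 FPKM in fibroblasts, and Col11a1, a fibril collagen, was at 335 and 422 FPKM in dermal sheath, 60.5 and 63.8 FPKM in papilla and 4.72 and 5.54 FPKM in fibroblasts. Papilla was the highest population for Rspo4 and sheath for Col11a1. Fibroblasts were still above the epithelium, as the rule requires of side genes. In the epithelium Rspo4 was at 0 to 0.495 FPKM and Col11a1 at 0 to 0.311 FPKM. Col11a1 was not called with populations as replicates (limma adjusted p = 0.0610).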

How the data were processed

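The deposited table holds 1 column of FPKM per library, made by the authors from RNA that was amplified before library preparation, so the values may carry amplification bias. TopHat2 2.0.3, Bowtie2 and Cufflinks 2.1.1 with mm10 are named, per the submitters' processing notes. Their roles, the annotation and any filter are not given in the sources used here, and the unit follows from the tools and the values. Whole reads could not be recovered (at most 5.38% of low genes lay within 1% of a common step), so the depth is unknown and precision is the spread between libraries.

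Analysis was on log2(FPKM + 1), which understates the change of low genes, and no scaling was added. Of 19150 rows (15 repeated symbols, 119 rows of several symbols), 13831 reached 1 FPKM in 2 or more of 10 libraries and were fitted with 5 population means in limma 3.58.1 under R 4.3.3 (5 residual degrees of freedom, prior variance with an intensity trend). The contrast was the mean of 2 epithelial minus the mean of 3 mesenchymal populations, two-sided, with Benjamini-Hochberg adjustment over all tested genes. A gene was called at an adjusted p under 0.05 and an absolute log2 difference of at least 1. Alternatives covered pseudocounts, filters, scalings, gaps, fits and sets of libraries.

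The gap rule, the 33 gene lists (618 genes, 13 of them not in the table) and the markers were chosen with earlier results of these data known. Named genes are the markers, the 10 largest gaps per side at 5 FPKM or more, per list up to 4 side genes with the largest gap and the members opposite to its majority, partners of ligands and receptors, the widest differences within a side, listings at 0 and the genes nearest the threshold. The text marks most of those named after their values were seen, and Pkp4, Col8a1, Cdh3, Rbm47, Kit, Dcn, Fgf18 and Fbln1 are others. Some genes that this rule names are not reported here. GENCODE M21 gave the mm10 coordinates. Melanocyte libraries entered no test.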

Additional observations from a re-analysis of the deposited data

How the results depend on the processing

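Depth is unknown, so precision rests on 2 libraries per population. With a pseudocount of 5 in place of 1, 1232 and 1616 genes were higher in epithelium and mesenchyme and 367 and 379 were on the sides, and a pseudocount of 0.1 put 1144 genes on the mesenchymal side. With populations as replicates 1561 genes were higher in mesenchyme. Quantile normalization gave 2510 and 2511 genes higher in epithelium and mesenchyme, with 706 and 637 on the sides. Median centring gave 2366 and 2708, with 667 and 696 on the sides. A gap of at least 4-fold left 147 and 282 side genes, and non-overlap with any gap gave 2580 and 2760. Without the outer root sheath libraries 1003 and 1170 genes were on the sides. Leaving out 1 library at a time gave 2060 to 2256 genes higher in epithelium, 2804 to 3052 higher in mesenchyme, 625 to 694 on the epithelial side and 778 to 837 on the mesenchymal side. The causes of these changes were not tested.

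Libraries carry the numbers 1 and 2 in each population, and no label says that a number marks a shared animal or day. Deviations of same-numbered libraries correlated at 0.19 to 0.54 over 10 pairs of populations, and with only 2 numbers this cannot show a pairing. With the replicate number as a block, 2154 genes were higher in epithelium and 2922 in mesenchyme.

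Among the 137 named genes in the fit, the direction turned for Kit without fibroblasts (1.24), for Sparc without fibroblasts (0.34) and for Lgr5 without outer root sheath (-0.070, all log2). For Sparc the dermal values then left were those of papilla, above the epithelium, and the 0 of sheath, which may be a failed estimate. The call was lost in 60 and gained in 7 other gene and setting combinations, and 3623 kept direction and call.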

Other observations

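A value of 0 on the whole opposite side was listed for 42 of the 751 mesenchymal side genes and 2 of the 607 epithelial side genes, and some of these may be failed estimates. Mfap5, a microfibril protein, is among the former, with 269.7 and 382 FPKM in dermal sheath, 10.8 and 9.87 FPKM in papilla and 15.0 and 28.2 FPKM in fibroblasts.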
